A study of Rattus norvegicus with 9 samples.

Results

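The genes followed here carry out DNA replication and mitosis. The list names 40 rat genes, 18 of DNA replication and 22 of mitosis, and a probe set counted for a gene when the platform's annotation gave it that gene's symbol and no other. By this rule 37 of the 40 genes were measured, 16 of replication and 21 of mitosis, through 48 of the array's 31099 probe sets. Rrm2, Cdc6 and Tpx2 had no such probe set and were passed over. All 48 probe sets passed the filter on weak signals, and a gene with several probe sets is represented by the brightest of them.

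RNA came from kidney progenitor tissue of Sprague-Dawley rat embryos on embryonic day 13, for which the labels name no mutant allele and no drug, and was measured on 9 single-colour Affymetrix arrays. The ureteric bud (UB) is the epithelial outgrowth that invades the kidney mesenchyme and branches into the collecting system, and 3 arrays each held a pool of about 100 buds freed from the embryonic kidney by brief trypsin digestion. Another 3 arrays held pools of about 50 Wolffian ducts with mesodermal cells still attached (WD with mesoderm), and 3 held pools of about 100 bare Wolffian ducts (WD), the tube from which the bud grows, dissected without digestion. Arrays of 1 tissue are labelled as biological replicates, so p-values measure the spread between pools, and trypsin digestion and bud tissue cannot be told apart.

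A dividing cell copies its DNA in S phase and separates the copies in mitosis. Licensing factors such as Cdt1 load the Mcm2 to Mcm7 helicase ring on origins before S phase, and the helicase, primase, polymerases, sliding clamp and clamp loader then work together at the replication fork. Cyclin B with the kinase Cdk1 drives entry into mitosis, the Aurora and Polo kinases build the spindle, and the checkpoint kinases hold back Cdc20 and the anaphase-promoting complex until every chromosome is attached. Transcripts of replication genes are known to peak around the start of S phase and those of mitotic genes later, shortly before division. In the developing kidney, dividing cells are known to be frequent in the branching bud tips, where Ret signalling is active. In bulk tissue fewer cells of a type and less RNA per cell cannot be told apart.

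Some properties of the arrays ran with the groups. The bioC to bioB ratio of the hybridisation controls lay between 2.87 and 2.99 for UB, was 2.93 for replicate 3 of WD with mesoderm, and lay between 1.02 and 1.23 for the remaining 5 arrays, so UB and WD do not share a level of it. For beta-actin, whose 3' over 5' signal tells how complete the labelled RNA is, that ratio was 1.48 to 2.30 in UB, 1.47 to 1.92 in WD with mesoderm and 2.19 to 4.87 in WD. Median signals were 534 to 626 units on the UB arrays, 644 to 897 with mesoderm and 778 to 862 on the WD arrays, so UB and WD did not overlap in them. The 13 measured duct epithelium markers summed to 253113 to 275278 units in UB, 78448 to 115983 in WD with mesoderm and 244570 to 265827 in WD, so the mixed tissue carried less duct signal. The 12 mesenchyme markers summed to 17342 to 23944 units in UB, 309460 to 347941 in WD with mesoderm and 127734 to 170972 in WD. No marker read exactly 0 on any array, and in UB the endothelial adhesion gene Pecam1 read 10, 109 and 21.1 units, against 419, 552 and 96.4 in WD.

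Replication and mitosis genes were mostly higher in UB than in WD. Of the 16 replication genes, 13 rose, none fell and 3 were not called, against a background of 11.3% of the 20330 tested probe sets called higher and 18.6% called lower. Of the 21 mitosis genes, 15 rose, none fell and 6 were not called. A gene was called where limma's Benjamini-Hochberg adjusted p, taken over all tested probe sets, was under 0.05. The median log2 difference was 0.55 over the replication genes, with a range of -0.0039 to 1.32, and 0.73 over the mitosis genes, with a range of 0.32 to 1.28, beside -0.12 over all tested probe sets. All probe sets split into 2297 higher and 3776 lower calls with the deposited scaling, 2515 and 2433 after quantile normalization and 5834 and 1530 with arrays centred on their medians, while none of the members fell under any of these scalings. All 3 UB arrays lay above all 3 WD arrays for 15 replication genes and 18 mitosis genes, where 18.3% of all probe sets showed such a separation upward and 29.5% downward.

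**Figure D1:**
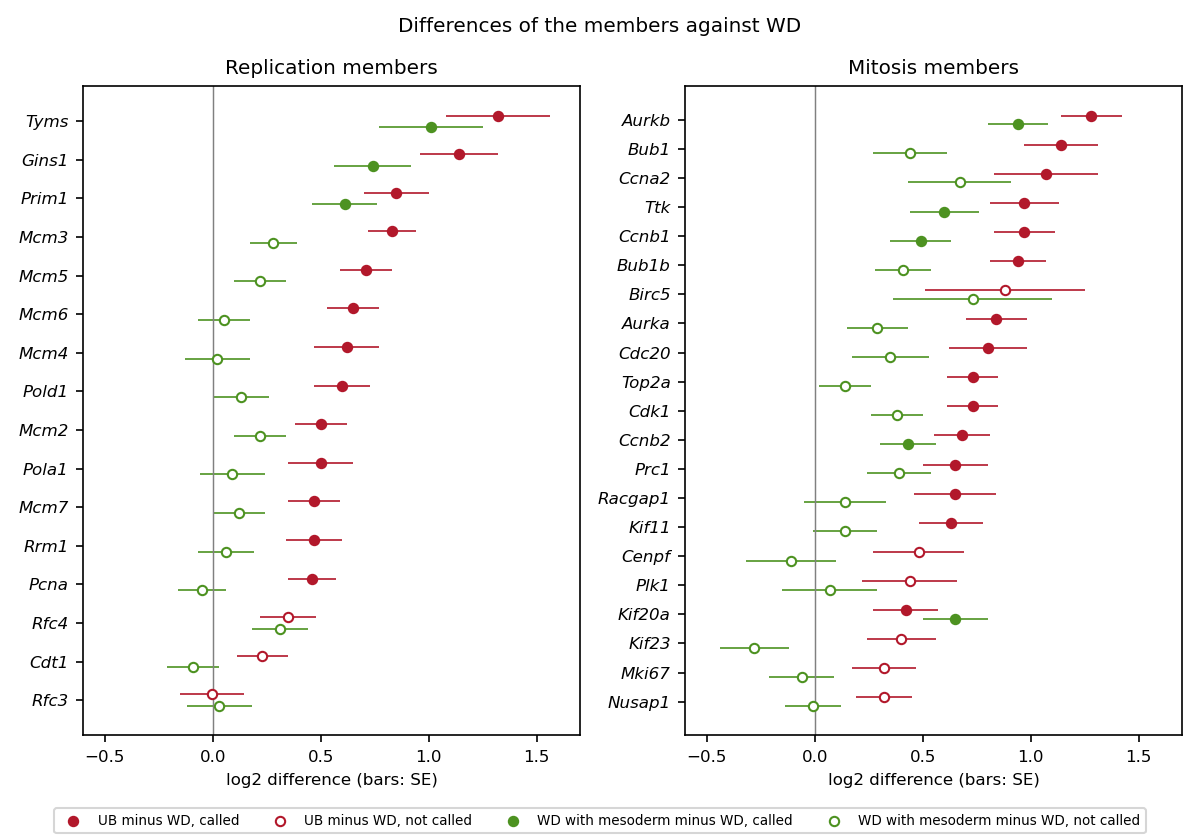
Log2 differences of the 16 replication genes (left) and 21 mitosis genes (right), UB minus WD in red and WD with mesoderm minus WD in green. Points are estimates from the linear model, bars are standard errors, and filled points have an adjusted p under 0.05. Of the 37 genes, 28 are filled in red and 8 in green, and none of the filled points lies below 0.

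The replicative helicase moved as a whole in this comparison. All 6 subunits, Mcm2 to Mcm7, were called higher in UB than in WD, with log2 differences of 0.47 to 0.83. Mcm3 read 16298, 17479 and 15552 intensity units in UB, 10821, 11485 and 11305 in WD with mesoderm and 9447, 8940 and 9217 in WD. The 3 tissues did not overlap for it, and UB exceeded WD 1.78-fold (log2 difference 0.83 ± 0.11 SE, limma adjusted p = 2.42e-04). Mcm5 read 12709, 13358 and 12337 units in UB, 9322, 9264 and 8637 in WD with mesoderm and 8091, 7211 and 8149 in WD. Its UB arrays also stood clear of all others, at 0.71 ± 0.12 above WD on the log2 scale (adjusted p = 0.00104). Mcm7, with the smallest difference of the 6, was 1.38-fold higher in UB (adjusted p = 0.0129).

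Gins1, a subunit of the GINS complex that completes the active helicase, read 7718, 7560 and 6988 units in UB, 4488, 5553 and 6964 in WD with mesoderm and 2985, 3907 and 3170 in WD. No array overlapped between UB and WD, and the fold was 2.21 (log2 difference 1.14 ± 0.18, adjusted p = 5.97e-04). Prim1, the catalytic subunit of the primase that lays down RNA primers, read 28343, 27333 and 25096 units in UB, 24827, 19414 and 24746 in WD with mesoderm and 15111, 12629 and 17427 in WD. It was 1.80-fold higher in UB than in WD (log2 difference 0.85 ± 0.15, adjusted p = 0.00137). The polymerase subunits Pola1 (0.50 ± 0.15) and Pold1 (0.60 ± 0.13), the sliding clamp Pcna (0.46 ± 0.11) and Rrm1, the large subunit of ribonucleotide reductase (0.47 ± 0.13), were called higher in UB by smaller log2 differences.

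Tyms, the enzyme that makes thymidylate, had the largest difference of the replication genes between UB and WD. It read 3365, 2754 and 3850 units in UB, 3644, 1917 and 2640 in WD with mesoderm and 1574, 1192 and 1137 in WD, a 2.5-fold excess in UB over WD (log2 difference 1.32 ± 0.24, adjusted p = 0.00189). The UB and WD arrays were apart, while the arrays with mesoderm overlapped UB. The clamp loader subunit Rfc3 read 9874, 11392 and 9899 units in UB, 9127, 11961 and 11038 in WD with mesoderm and 9018, 11904 and 10458 in WD. All 3 tissues overlapped for it, and the 95% interval of its UB minus WD difference ran from -0.33 to 0.32 on the log2 scale (adjusted p = 0.987). Its partner Rfc4 (0.35 ± 0.13, adjusted p = 0.0566) and the licensing factor Cdt1 (0.23 ± 0.12, adjusted p = 0.15) also missed the threshold, although their UB and WD arrays did not overlap.

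Among the mitosis genes, cyclins and Cdk1 were called without exception in UB against WD. Ccnb1, cyclin B1, read 23885, 24771 and 22964 units in UB, 15986, 17595 and 17671 in WD with mesoderm and 9900, 13514 and 13469 in WD. Its tissues formed separate steps, with UB 1.96-fold above WD (log2 difference 0.97 ± 0.14, adjusted p = 3.47e-04). Cyclin A2, Ccna2, was 1.07 ± 0.24 higher on the log2 scale, Cdk1 0.73 ± 0.12 and cyclin B2, Ccnb2, 0.68 ± 0.13. The 3 WD arrays of Ccna2 were uneven, at 13660, 5978 and 7830 units, and all lay below the lowest UB array at 16681.

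The spindle checkpoint showed the same pattern. Bub1, a kinase of the checkpoint at kinetochores, read 17808, 17654 and 16322 units in UB, 11321, 8048 and 13227 in WD with mesoderm and 7688, 8892 and 6987 in WD. UB was 2.20-fold above WD with no overlap (log2 difference 1.14 ± 0.17, adjusted p = 5.74e-04). Bub1b, whose product BubR1 is part of the complex that inhibits Cdc20, read 11361, 11622 and 10704 units in UB, 7307, 7992 and 7965 in WD with mesoderm and 5220, 6818 and 5568 in WD. Its 3 tissues did not overlap (UB minus WD 0.94 ± 0.13, adjusted p = 3.75e-04). The checkpoint kinase Ttk, called Mps1 in yeast, read 13769, 12709 and 11589 units in UB, 9959, 9386 and 10083 in WD with mesoderm and 7347, 7384 and 4921 in WD, again with no overlap. Its UB minus WD difference was 0.97 ± 0.16 (adjusted p = 0.00111), and that of their target Cdc20 was 0.80 ± 0.18 (adjusted p = 0.00602).

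Aurkb, the Aurora kinase of the chromosomal passenger complex, had the largest difference of the mitosis genes in this comparison. It read 10670, 9238 and 12767 units in UB, 8967, 7953 and 8540 in WD with mesoderm and 4152, 4344 and 4759 in WD, so both other tissues lay wholly above WD (UB minus WD 1.28 ± 0.14, 2.43-fold, adjusted p = 6.19e-05). Aurka, the Aurora kinase of the spindle poles, was 0.84 ± 0.14 higher. Birc5, survivin, a partner of Aurkb in the same complex, was uneven within tissues, with 4589, 2399 and 6093 units in UB, 6121, 3814 and 2124 in WD with mesoderm and 2029, 2493 and 2089 in WD. These overlapped, and its difference of 0.88 ± 0.37 was not called (adjusted p = 0.0901). Plk1, the Polo kinase, was not called either (0.44 ± 0.22, adjusted p = 0.15).

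Spindle and chromosome genes were mixed. Top2a, the topoisomerase that untangles sister chromatids, was 0.73 ± 0.12 higher in UB than in WD on the log2 scale. The motor Kif11 and the cytokinesis genes Prc1, Racgap1 and Kif20a were called, with differences of 0.42 to 0.65. The cytokinesis motor Kif23, the spindle protein Nusap1, the kinetochore protein Cenpf and the proliferation marker Mki67 were not, with adjusted p of 0.0718 to 0.124. Mki67 read 20881, 24218 and 17495 units in UB, 16282, 14462 and 17189 in WD with mesoderm and 17846, 17903 and 14222 in WD. Its UB and WD arrays overlapped, and the 95% interval of the difference ran from -0.01 to 0.65.

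**Figure D2:**
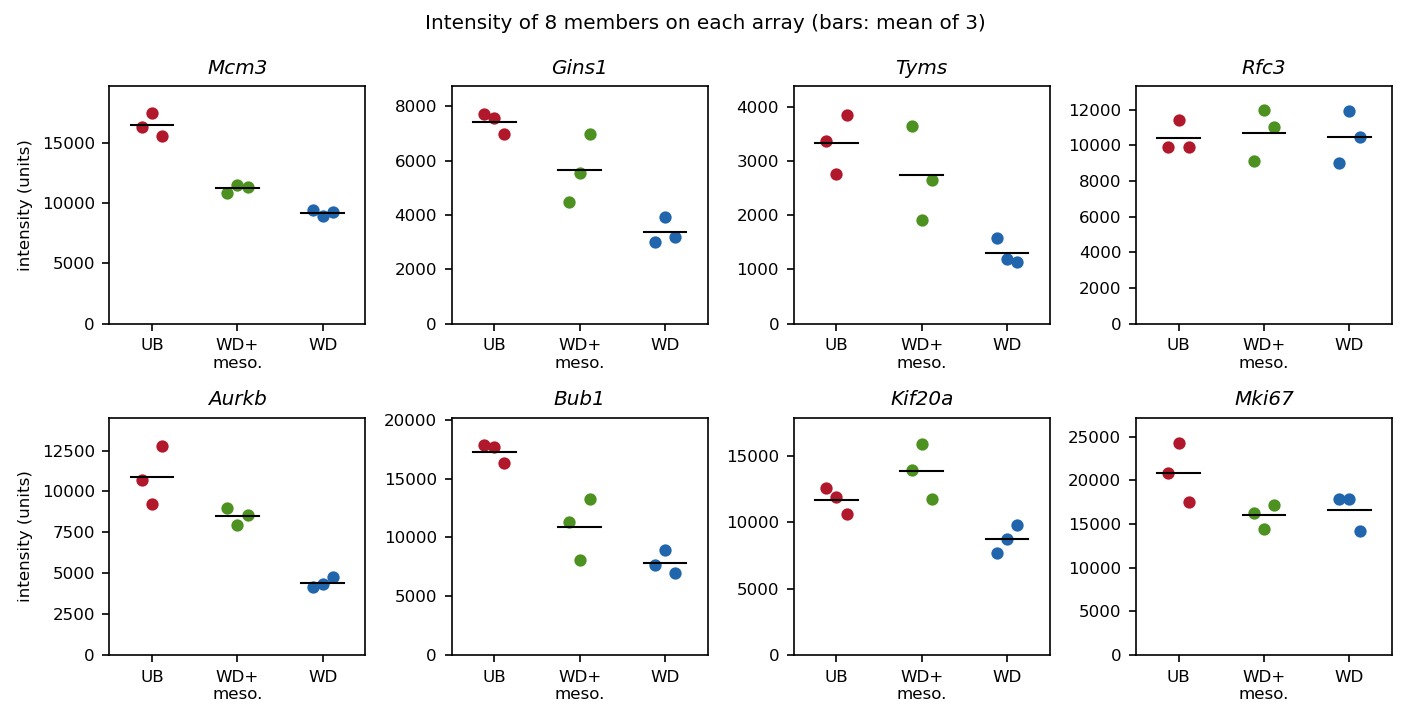
Intensity on each array for 8 genes, replication above and mitosis below, with the mean of the 3 arrays of a tissue as a bar. Mcm3, Gins1, Aurkb and Bub1 are highest in UB and lowest in WD by their means, Kif20a is highest in WD with mesoderm, and UB and WD overlap for Rfc3 and Mki67.

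The comparison of UB with WD coincided with the difference in control ratio and in beta-actin 3' to 5' ratio given above. With a term for arrays whose bioC to bioB ratio exceeded 2, a fit in which UB and WD are linked only through WD with mesoderm, 27 of the 28 calls were lost, and Aurkb (1.27 ± 0.27, adjusted p = 0.0263) remained. The medians were then 0.44 over the replication genes and 0.67 over the mitosis genes, and 0.994% of all probe sets were called higher. With the log2 beta-actin ratio as a covariate, 7 of the 28 calls were lost, and 5.73% of all probe sets were called higher. Single calls were also lost, with adjusted p up to 0.17, when 1 array was left out. These were Mcm7 without UB 1, Rrm1 without UB 1 or WD 3, Pola1 without any of the UB arrays or WD 2, Kif20a without any UB array, WD 1, WD 2 or WD with mesoderm 1, and Racgap1 without any UB array, WD 1 or WD 3. Rfc4, Kif23, Birc5 and Cenpf were called when 1 array was left out (WD 2 or WD with mesoderm 1 for Rfc4, WD 2 for Kif23 and Cenpf, UB 2 for Birc5).

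Markers of the surrounding cells were lower in UB than in WD. On the log2 scale and relative to the WD mean, the UB arrays averaged -2.97 to -2.56 over the mesenchyme markers, -3.46 to -2.54 over 9 red cell markers, -1.35 to -0.71 over 11 endothelial markers and -1.43 to -1.04 over 9 macrophage markers. By count, 11 of 12 mesenchyme, 7 of 9 red cell, 5 of 11 endothelial and 5 of 9 macrophage markers were called lower, and 1 mesenchyme marker, Meox1, was called higher. Red cell markers summed to 11581 to 39608 units in UB and 231835 to 357168 in WD, endothelial markers to 1788 to 2906 in UB and 4730 to 5753 in WD, and macrophage markers to 1897 to 2721 in UB and 4219 to 6692 in WD. The duct epithelium mean moved by -0.08 to 0.06, with Lhx1, Cldn3 and Ret higher and Krt8, Krt18 and Krt19 lower among its 13 markers. Single duct markers differed by -4.69 to 2.62 on the log2 scale, so this mean hides large opposite differences. The part of these cells in the higher replication and mitosis signal was not tested.

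The levels of the whole lists separated the tissues array by array. Relative to the WD mean, the replication genes averaged 0.55 to 0.65 higher on the log2 scale on the UB arrays, 0.20 to 0.29 for WD with mesoderm and -0.04 to 0.03 for WD itself. The mitosis genes averaged 0.69 to 0.75 in UB, 0.31 to 0.33 in WD with mesoderm and -0.04 to 0.07 in WD. By their means, 13 of 16 replication genes and 16 of 21 mitosis genes had the order UB, WD with mesoderm, WD from high to low, an order held by 17.1% of all tested probe sets. The order UB, WD, WD with mesoderm was held by 2 replication genes and 4 mitosis genes, and Rfc3 and Kif20a were highest in WD with mesoderm.

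**Figure D3:**
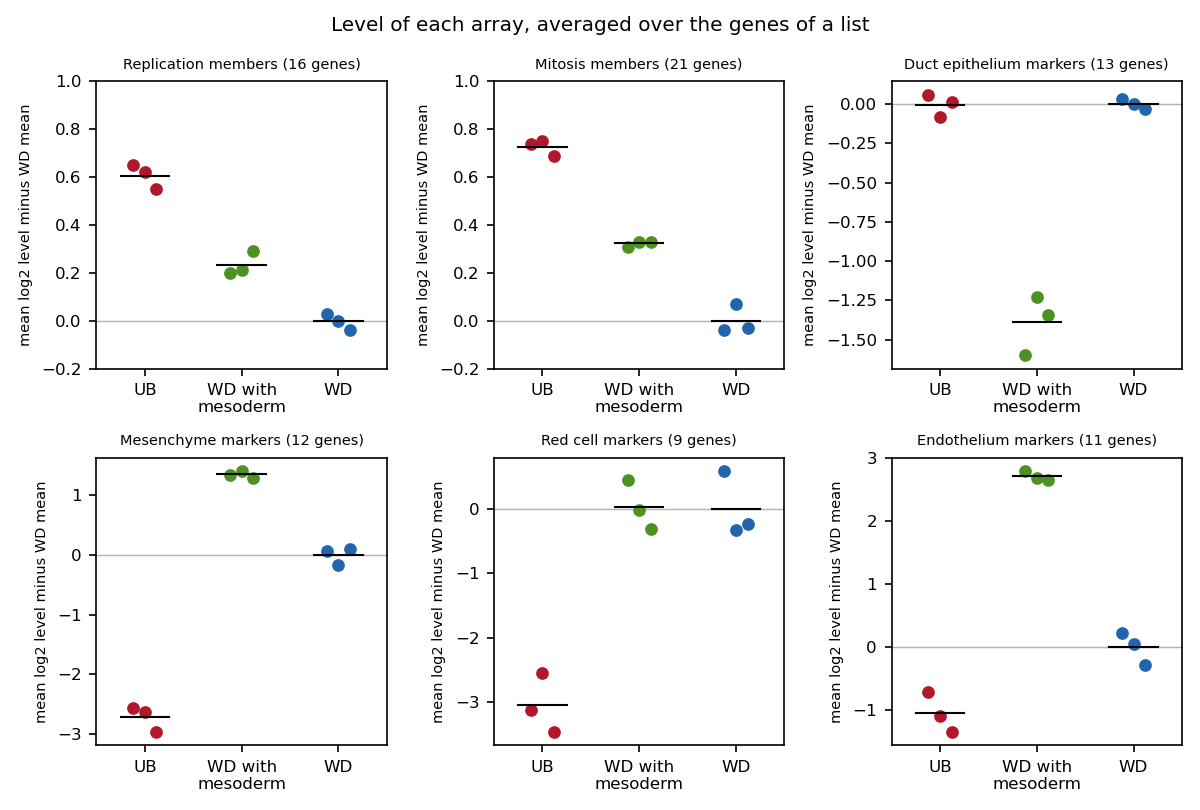
Mean log2 level of each gene list on each array, minus the mean of the 3 WD arrays, for replication genes, mitosis genes and markers of duct epithelium, mesenchyme, red cells and endothelium. Points are arrays and bars are means of 3. The replication and mitosis panels step down from UB through WD with mesoderm to WD, while the mesenchyme and endothelium markers are highest in WD with mesoderm and lowest in UB.

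Among genes with a promoter in the table, which Aurkb lacks, the 2 replication and 2 mitosis genes with the smallest p in UB against WD are shown with the motifs counted for both gene classes. E2F factors are known to bind promoters of replication genes, and the cell cycle homology region (CHR) is an element known from promoters of mitotic genes, often near CCAAT boxes bound by NF-Y. The windows run from 250 bases before to 50 bases after the start site in RefSeq's GRCr8 assembly, 5' to 3' on the gene's strand, and capitals mark matches to any of these motifs on either strand. Mcm3 lies at chr9:30733697-30733996 on the minus strand, Gins1 at chr3:160184670-160184969 on the plus strand, Ccnb1 at chr2:33655176-33655475 on the minus strand and Bub1b at chr3:126016817-126017116 on the plus strand.
Mcm3: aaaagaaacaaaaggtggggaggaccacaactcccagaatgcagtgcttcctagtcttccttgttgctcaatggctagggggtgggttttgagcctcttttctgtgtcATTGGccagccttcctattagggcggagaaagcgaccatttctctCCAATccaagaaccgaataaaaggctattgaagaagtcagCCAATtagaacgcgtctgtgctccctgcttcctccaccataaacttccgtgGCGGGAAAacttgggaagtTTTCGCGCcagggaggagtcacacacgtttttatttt
Gins1: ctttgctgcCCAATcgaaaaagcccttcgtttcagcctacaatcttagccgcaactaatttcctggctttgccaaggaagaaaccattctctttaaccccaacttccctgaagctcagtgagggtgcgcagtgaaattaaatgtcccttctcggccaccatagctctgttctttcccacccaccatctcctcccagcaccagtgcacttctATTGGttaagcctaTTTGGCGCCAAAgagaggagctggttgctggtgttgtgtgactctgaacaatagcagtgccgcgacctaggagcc
Ccnb1: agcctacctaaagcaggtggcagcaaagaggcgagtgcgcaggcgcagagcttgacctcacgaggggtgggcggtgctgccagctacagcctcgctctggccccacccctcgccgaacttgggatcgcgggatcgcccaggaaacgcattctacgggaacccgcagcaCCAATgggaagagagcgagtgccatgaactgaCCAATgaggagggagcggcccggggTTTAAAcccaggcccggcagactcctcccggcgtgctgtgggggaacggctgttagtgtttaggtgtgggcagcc
Bub1b: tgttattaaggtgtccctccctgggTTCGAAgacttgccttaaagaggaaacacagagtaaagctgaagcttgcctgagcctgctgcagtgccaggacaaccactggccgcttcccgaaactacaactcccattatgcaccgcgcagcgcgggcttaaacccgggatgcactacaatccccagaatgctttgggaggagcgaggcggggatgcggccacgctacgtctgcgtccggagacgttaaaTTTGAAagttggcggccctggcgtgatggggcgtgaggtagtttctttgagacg

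The E2F search used TTTCCCGC, TTTCGCGC, TTTGCCGC and TTTGGCGC, the CHR search used TTTGAA as well as TTCGAA plus TTTAAA, and the last search took its own name as letters, all on both strands. Matches of different motifs were counted separately where they overlapped. Mcm3 held E2F matches starting 6 bases before the start site (position -6) and at position 14, and Gins1 held a pair that overlap as a palindrome at -25 and -21. Ccnb1 held a CHR match at -25 with CCAAT boxes at -82 and -50, and Bub1b held CHR matches at -225 and -4 and no CCAAT. Of the 37 measured genes 33 had a promoter in the table, and Mcm4, Aurkb, Ccna2 and Racgap1 had none. An E2F match was present in 10 of 15 replication promoters (66.7%) and in 1 of 18 mitosis promoters (5.56%, Cdk1), against 2.25% of 27457 promoters. A CHR match was present in 5 of 15 replication promoters (33.3%) and in all 18 mitosis promoters with an entry (100%), against 29.2% of all. A CCAAT match was present in 11 of 15 replication promoters (73.3%) and 15 of 18 mitosis promoters (83.3%), against 37.7% of all. The counts describe letters in these windows and are not measured binding, and Rfc3, which was called in none of the 3 comparisons, held 2 E2F matches.

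**Figure D4:**
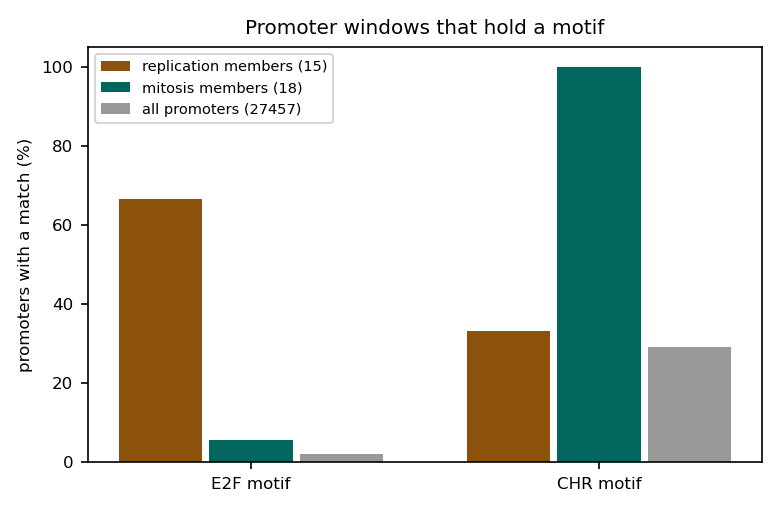
Share of promoter windows with at least 1 match to the E2F or CHR motif, in percent, for 15 replication genes, 18 mitosis genes and all 27457 promoters. E2F matches are most frequent in replication promoters (66.7%) and CHR matches in mitosis promoters (100%).

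In WD with mesoderm against WD, fewer of these genes were called and their differences were smaller. Of the 16 replication genes, 3 rose (Tyms, Gins1 and Prim1) and none fell, and of the 21 mitosis genes, 5 rose (Aurkb, Kif20a, Ttk, Ccnb1 and Ccnb2) and none fell. The background was 5.62% of probe sets called higher and 7.06% called lower, 1142 and 1436 by number, against 1242 and 923 with arrays centred on their medians. The median log2 difference was 0.12 over the replication genes and 0.38 over the mitosis genes, beside -0.04 over all probe sets. The arrays of the 2 tissues overlapped for 10 of 16 replication genes and 13 of 21 mitosis genes, where 13.5% of all probe sets lay wholly higher and 16% wholly lower.

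Tyms was 1.01 ± 0.24 higher in WD with mesoderm than in WD on the log2 scale (adjusted p = 0.0163), Gins1 0.74 ± 0.18 (adjusted p = 0.0165) and Prim1 0.61 ± 0.15 (adjusted p = 0.0168), and for these 3 genes every array with mesoderm lay above every WD array. The helicase subunits did not pass in this comparison. Their log2 differences ran from 0.02 for Mcm4 to 0.28 for Mcm3, with 95% intervals of -0.31 to 0.36 for Mcm4 and 0.04 to 0.53 for Mcm3 (adjusted p = 0.942 and 0.123). Pcna was 0.05 lower and Cdt1 0.09 lower in estimate, neither called (log2 differences -0.05 ± 0.11 and -0.09 ± 0.12).

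Aurkb was 1.91-fold higher in WD with mesoderm than in WD (log2 difference 0.94 ± 0.14, adjusted p = 0.00124). Kif20a, a kinesin needed for cytokinesis, read 12620, 11887 and 10606 units in UB, 13918, 15862 and 11760 in WD with mesoderm and 7717, 8765 and 9780 in WD. Both other tissues lay above WD for this gene and overlapped each other (WD with mesoderm minus WD 0.65 ± 0.15, adjusted p = 0.012). Ttk was 0.60 ± 0.16 higher (adjusted p = 0.0301), Ccnb1 0.49 ± 0.14 (adjusted p = 0.0373) and Ccnb2 0.43 ± 0.13 (adjusted p = 0.0428). Cdk1 just missed the threshold at 0.38 ± 0.12 (adjusted p = 0.0526), and Kif23 had the lowest estimate of the mitosis genes at -0.28 ± 0.16 (adjusted p = 0.268).

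Aurkb alone kept its call without each array in turn. The others were lost, with adjusted p up to 0.131, without WD 2, WD with mesoderm 1 or 3 (Prim1), WD 1 or WD with mesoderm 3 (Gins1), WD 2 or WD with mesoderm 1 (Tyms), WD with mesoderm 2 (Kif20a), WD 3 or any array with mesoderm (Ttk), UB 1, UB 2, WD 1, WD with mesoderm 2 or 3 (Ccnb1), and any array but WD with mesoderm 1 (Ccnb2). Conversely, Bub1 was called without WD with mesoderm 2, Bub1b without WD 2, Ccna2 without WD 1 and Prc1 without WD 3. The replication count of 3 was 1 without WD 2, WD with mesoderm 1 or WD with mesoderm 3, and the mitosis count of 5 was 3 without UB 1 or UB 2 and 2 without WD with mesoderm 2 or 3. With the beta-actin covariate 7 of the 8 calls were lost, Aurkb among them (adjusted p = 0.0956), and Ttk remained. Of all probe sets, 1.88% were then called higher. With the control-ratio term 5 of the 8 calls were lost, leaving Tyms, Aurkb and Kif20a. On the 5 arrays with a low control ratio 0 replication and 3 mitosis genes were called. These were Aurkb, Kif20a and Birc5, the last not called on all 9 arrays, while Ttk, Ccnb1 and Ccnb2 lost their calls. On the arrays of WD with mesoderm, 11 of 13 duct epithelium markers were called lower and 8 of 12 mesenchyme and 9 of 11 endothelial markers higher, while 0 of 9 red cell markers were called and 1 of 9 macrophage markers, Mrc1, was higher. Endothelial markers summed to 39002 to 40797 units there, against 4730 to 5753 in WD, and the part of the added cells in the 8 calls was not tested.

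In UB against WD with mesoderm, calls were again all upward. Of the 16 replication genes, 7 rose (Mcm3, Mcm4, Mcm5, Mcm6, Pcna, Rrm1 and Pold1) and none fell. Of the 21 mitosis genes, 8 rose (Top2a, Kif23, Bub1, Bub1b, Aurka, Ccnb1, Cdk1 and Kif11) and none fell. The background was 11% of probe sets called higher and 14.5% called lower, 2228 and 2948 by number. With arrays centred on their medians it was 4610 higher and 1792 lower, and 14 replication and 19 mitosis genes were then called higher. The median log2 difference was 0.41 over the replication genes and 0.39 over the mitosis genes, beside -0.05 over all probe sets. Arrays overlapped for 3 of 16 replication genes and 5 of 21 mitosis genes, where 20% of all probe sets lay wholly higher and 22.6% wholly lower.

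Mcm6 read 45116, 46761 and 38543 units in UB, 31446, 26303 and 28122 in WD with mesoderm and 29418, 27006 and 26421 in WD. UB stood apart from both other tissues, which overlapped (UB minus WD with mesoderm 0.60 ± 0.12, adjusted p = 0.00282). Pcna, the clamp that holds the polymerase on DNA, had the same shape, with 76374, 79207 and 68592 units in UB, 49945, 52194 and 55166 in WD with mesoderm and 55406, 56094 and 51052 in WD (0.51 ± 0.11, adjusted p = 0.00384). Mcm3 was 0.55 ± 0.11 higher (adjusted p = 0.00312) and Mcm5 0.49 ± 0.12 (adjusted p = 0.00822). The 3 replication genes that had risen in WD with mesoderm against WD were not called here, with Tyms at 0.31 ± 0.24 (adjusted p = 0.395), Gins1 at 0.41 ± 0.18 (adjusted p = 0.115) and Prim1 at 0.23 ± 0.15 (adjusted p = 0.284). These comparisons share arrays, so the values are set side by side and are not independent.

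Top2a read 26172, 30094 and 24174 units in UB, 17323, 16718 and 19004 in WD with mesoderm and 16334, 14682 and 17184 in WD. UB was clear of both, at 0.60 ± 0.12 above WD with mesoderm (adjusted p = 0.00375). Kif23, a kinesin of the central spindle, read 10160, 10964 and 10469 units in UB, 6554, 5612 and 7704 in WD with mesoderm and 7565, 9504 and 7064 in WD, with UB above all others (0.68 ± 0.16, adjusted p = 0.00659). Both Top2a and Kif23 lost these calls when their probe sets were averaged. Their weaker probe sets gave 0.28 ± 0.30 for Top2a (adjusted p = 0.567) and 0.19 ± 0.49 for Kif23 (adjusted p = 0.826), with overlapping arrays. Bub1 was 0.69 ± 0.17 higher (adjusted p = 0.0108) and Bub1b 0.53 ± 0.13 (adjusted p = 0.0117). Aurkb, called against WD in both other comparisons, differed by 0.35 ± 0.14 between UB and WD with mesoderm (adjusted p = 0.104), and Kif20a by -0.23 ± 0.15 (adjusted p = 0.285).

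With the control-ratio term, 14 of these 15 calls were lost and Mcm6 (0.62 ± 0.17, adjusted p = 0.0412) remained. Among the 4 arrays with a high control ratio, where the lone array of WD with mesoderm was assumed to vary like the others, 4 replication and 0 mitosis genes were called, with medians of 0.33 and 0.39. Without UB 1 the replication count of 7 was 4, and the mitosis count of 8 was 4 without UB 1 or UB 2 and 5 without WD with mesoderm 1. By gene, calls were lost, with adjusted p up to 0.188, without UB 1, UB 2 or WD with mesoderm 2 (Mcm4), any UB array or array with mesoderm (Rrm1), UB 1 or UB 3 (Pold1), UB 2 or WD with mesoderm 2 (Aurka), UB 1 (Bub1b), UB 1, UB 2 or WD with mesoderm 1 (Ccnb1 and Kif11), and UB 1, UB 2, WD 1, WD with mesoderm 1 or 2 (Cdk1). Calls were made for Mcm7 without WD 2 or WD with mesoderm 3, Pola1 without WD 2, Gins1 without WD with mesoderm 3, Cdc20 without WD 1, Ttk without WD 3, Mki67 without UB 3, Cenpf without UB 3, WD 2 or WD 3, and Racgap1 without WD 2 or WD 3. Cell type markers differed in this comparison too. In UB, 11 of 12 mesenchyme, 11 of 11 endothelial, 7 of 9 red cell and 7 of 9 macrophage markers were called lower. Of the 13 duct epithelium markers, 12 were called higher in UB and 1 lower. The part of these cell types in the calls was not tested.

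Other probe sets of the same genes gave a further reading. The 8 genes with more than 1 probe set had 11 further ones, of which 6 were called higher and 0 lower in UB against WD, 3 higher and 0 lower in WD with mesoderm against WD, and 0 in UB against WD with mesoderm. In the same order, all tested probe sets gave 11.3%, 5.62% and 11% higher calls and 18.6%, 7.06% and 14.5% lower calls. A second probe set of Ccnb1 gave 0.99 ± 0.13 in UB against WD, beside 0.97 ± 0.14 for the first. The weaker probe set of Kif11 gave 1.42 ± 0.22, beside 0.63 ± 0.15, and that of Kif23 gave 1.94 ± 0.49 where the brighter was not called. Likewise the weaker probe set of Nusap1 was called (0.68 ± 0.19, adjusted p = 0.018) and its brighter one was not. Weaker probe sets of Ttk (1.38 ± 0.43, adjusted p = 0.0305) and Racgap1 (0.98 ± 0.22, adjusted p = 0.00641) were called like their brighter ones. The weaker probe set of Top2a was not called (0.40 ± 0.30), although its brighter one was. Against WD, the weaker probe set of Kif23 was also called higher in WD with mesoderm (1.75 ± 0.49, adjusted p = 0.0344), opposite in sign to the brighter one. Weaker probe sets of Ccnb1 (0.64 ± 0.13, adjusted p = 0.0081) and Kif11 (0.96 ± 0.22, adjusted p = 0.0144) were called higher there too. The brighter one of Kif11 was not. Cdc20 had 5 probe sets, of which only the brightest was called in UB against WD, and its other 4 gave -0.22 to 0.94.

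Further replication genes outside the list were mostly higher in UB than in WD. Of 36 other tested replication genes, 21 rose and 1, the origin recognition subunit Orc4, fell in UB against WD (-0.45 ± 0.15, adjusted p = 0.0437), with a median log2 difference of 0.53. All probe sets gave 11.3% higher and 18.6% lower calls in this comparison. The call of Orc4 was lost without each of the 6 UB and WD arrays in turn, and its estimate was 0.01 when arrays were centred on their medians. Uhrf1, which directs maintenance methylation to newly copied DNA, read 15574, 15621 and 19014 units in UB, 7797, 8120 and 7820 in WD with mesoderm and 7204, 4334 and 5976 in WD, and UB was apart from both others (UB minus WD 1.54 ± 0.17, adjusted p = 6.33e-05). The helicase paralog Mcm8 differed by 1.98 ± 0.28, the thymidine kinase Tk1 by 1.47 ± 0.17 and the origin recognition subunit Orc6 by 1.14 ± 0.16. In WD with mesoderm against WD, 4 of the 36 rose (Tk1, Dut, Rpa2 and Orc6) and none fell. Among all probe sets, 5.62% were called higher there and 7.06% lower. Of the 4 genes, Tk1 had the largest difference at 0.92 ± 0.17. Dut, Rpa2 and Orc6 lost their calls without any of 3, 6 and 6 single arrays (Dut gave -0.12 when its probe sets were averaged). Tk1 lost its call in that comparison when its probe sets were averaged (0.36, adjusted p = 0.198) and with the beta-actin covariate (0.54, adjusted p = 0.227). In UB against WD with mesoderm 13 rose and none fell, among them Uhrf1 (1.07 ± 0.17), the single-strand binding subunit Rpa3 (1.01 ± 0.20) and the flap nuclease Fen1 (0.66 ± 0.14). The shares over all probe sets were 11% higher and 14.5% lower.

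Of 43 other tested mitosis genes, 28 rose and none fell in UB against WD, with a median log2 difference of 0.74. The shares over all probe sets were 11.3% higher and 18.6% lower. Plk4, the kinase that starts centriole duplication, read 12100, 13843 and 12358 units in UB, 6552, 6502 and 7955 in WD with mesoderm and 6080, 5534 and 4777 in WD. UB did not overlap the others (UB minus WD 1.22 ± 0.14, adjusted p = 7.97e-05). The mitotic kinase Pbk differed by 1.15 ± 0.14, and the kinetochore subunits Spc24 and Nuf2 by 1.12 ± 0.15 and 0.93 ± 0.12. In WD with mesoderm against WD, 8 rose and none fell, with Pbk at 0.88 ± 0.14 and Spc24 at 0.85 ± 0.15. Cks1b (0.60, adjusted p = 0.0126) and Cenpw (0.70, adjusted p = 0.0144) were also called, but lost their calls without any of 2 and 3 single arrays. Among all probe sets, 5.62% were called higher there and 7.06% lower. In UB against WD with mesoderm, 16 rose and none fell, including Plk4 (0.87 ± 0.14), the checkpoint protein Mad2l1, the cytokinesis regulator Ect2 (0.93 ± 0.16) and the kinesin Kif18a (1.23 ± 0.24). All probe sets gave 11% higher and 14.5% lower calls there.

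Regulators of entry into the cycle held calls in both directions, more of them upward in UB against WD. Of 27 tested, 12 rose and 3 fell (Tfdp2, Ccnd3 and Rb1) in UB against WD. In this comparison 11.3% of all probe sets were called higher and 18.6% lower. Gmnn, geminin, the inhibitor of Cdt1 that is present in S phase and later, read 11542, 11650 and 12079 units in UB, 6415, 7274 and 6931 in WD with mesoderm and 4265, 4440 and 4607 in WD. Its tissues formed 3 separate steps (UB minus WD 1.40 ± 0.12, adjusted p = 7.39e-06, and WD with mesoderm minus WD 0.62 ± 0.12, adjusted p = 0.00493). When its probe sets were averaged, Gmnn gave 0.80 in UB against WD (adjusted p = 0.00525) and was not called in WD with mesoderm against WD (0.35, adjusted p = 0.224) or in UB against WD with mesoderm (0.45, adjusted p = 0.0785). Ccnd1, cyclin D1, read 28328, 31481 and 21373 units in UB, 10036, 9096 and 15269 in WD with mesoderm and 11597, 11638 and 10066 in WD, so only UB stood apart (UB minus WD 1.27 ± 0.20, WD with mesoderm minus WD 0.01 ± 0.20). Cyclin E1, Ccne1, was 1.15 ± 0.17 higher in UB than in WD. Tfdp2, a partner of E2F factors, was lower at its brightest probe set (-0.83 ± 0.15, adjusted p = 0.00147) but gave 0.01 when its probe sets were averaged, while Ccnd3 (-0.54 ± 0.18) and Rb1 (-0.72 ± 0.25) lost their calls without any of 6 and 5 single arrays. All 3 falls lost their calls with arrays centred on their medians.

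In WD with mesoderm against WD, Gmnn was the 1 regulator that rose, and Rb1 (-1.48 ± 0.25), the phosphatase Cdc25a (-0.61 ± 0.15) and Myc (-0.65 ± 0.17) fell, the calls of Cdc25a and Myc being lost without any of 3 single arrays each. These counts of 1 and 3 among 27 stand beside 5.62% of all probe sets called higher and 7.06% called lower. In UB against WD with mesoderm 9 rose and 2 fell, with Ccnd1 at 1.25 ± 0.20 and Ccnd3 at -0.96 ± 0.18. The other fall was Tfdp2 (-0.71 ± 0.15), which gave -0.20 when its probe sets were averaged (adjusted p = 0.599). Over all probe sets, 11% were called higher and 14.5% lower there.

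Inhibitors of the cycle and genes of resting cells did not move as a group. Of 17 tested, 2 rose (Wee1 and Tob1) and 4 fell (Gas6, Cdkn1a, Txnip and Cdkn1c) in UB against WD, with a median of 0.08, where 11.3% of all probe sets were called higher and 18.6% lower. These shares are close to those of the list, so the genes below are described singly. Cdkn1c, the Cdk inhibitor p57, read 15903, 14469 and 13186 units in UB, 46256, 47937 and 45288 in WD with mesoderm and 22010, 23961 and 20063 in WD. The 3 tissues were apart in the order WD with mesoderm, WD, UB (UB minus WD -0.60 ± 0.12, adjusted p = 0.00304, and WD with mesoderm minus WD 1.08 ± 0.12, adjusted p = 1.57e-04). The UB against WD call of Cdkn1c was lost with arrays centred on their medians (-0.14, adjusted p = 0.624), with the control-ratio term (-0.54, adjusted p = 0.212) and with the beta-actin covariate (-0.50, adjusted p = 0.0611). Cdkn1a, the Cdk inhibitor p21, averaged 1917 ± 535 units in UB, 1879 ± 183 in WD with mesoderm and 4658 ± 802 in WD (SD, n = 3 arrays each). It was lower than in WD in both other tissues, with a log2 difference of -1.28 ± 0.21 each time (limma adjusted p = 0.00104 and 0.00195). Wee1, the kinase that restrains Cdk1, was 0.84 ± 0.14 higher in UB than in WD.

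In WD with mesoderm against WD, Cdkn1c, Cdkn2d (0.91 ± 0.24) and Txnip (0.77 ± 0.21) rose and Cdkn1a fell, the calls of Cdkn2d and Txnip being lost without any of 2 and 5 single arrays. Over all probe sets, 5.62% were called higher and 7.06% lower in that comparison. In UB against WD with mesoderm 5 of the 17 genes rose (Tob1, Gadd45a, Wee1, Klf4 and Btg1) and 6 fell, among them Gas6 (-2.08 ± 0.22), Txnip (-1.98 ± 0.21) and Cdkn1c (-1.68 ± 0.12). These counts stand beside 11% of all probe sets called higher and 14.5% called lower. The calls of Klf4 and Btg1 were lost without any of 5 single arrays each. The mesenchyme markers were also lower in UB than in WD with mesoderm, with 11 of 12 called, and their part in these falls was not tested. Of the genes outside the members named in UB against WD, Uhrf1, Tk1 and Gmnn kept their calls with the control-ratio term and the others lost them. Of those named in WD with mesoderm against WD, Pbk, Cdkn1c and Cdkn1a kept their calls with the beta-actin covariate. In UB against WD with mesoderm, Rpa3, Fen1, Ect2, Kif18a, Ccnd3, Tob1, Wee1, Klf4 and Btg1 lost their calls with the control-ratio term.

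**Figure D5:**
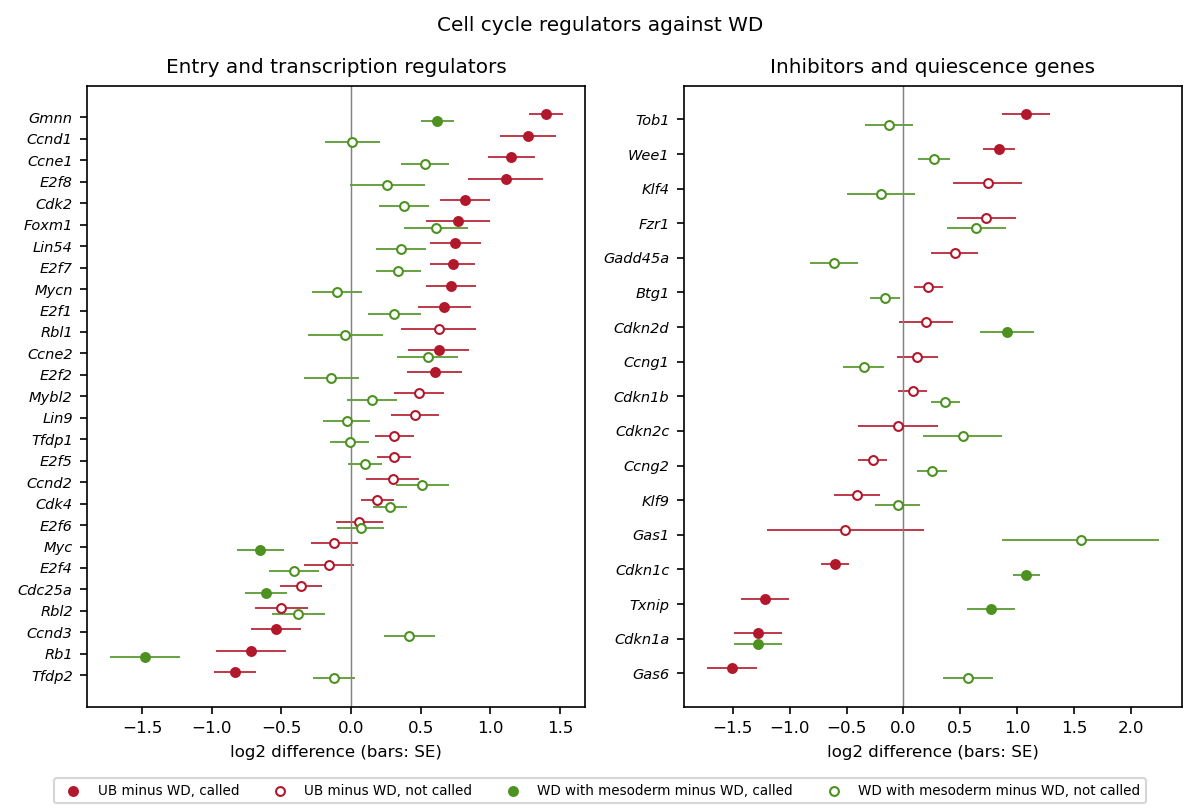
Log2 differences of 27 regulators of cycle entry (left) and 17 inhibitors and quiescence genes (right), UB minus WD in red and WD with mesoderm minus WD in green. Points are estimates, bars are standard errors, and filled points have an adjusted p under 0.05. Gmnn and Ccnd1 are highest among the regulators in UB, and Cdkn1c lies below 0 in UB and above 0 in WD with mesoderm.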

How the data were processed

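The deposited table holds 1 linear intensity per probe set and array, made with GCOS, the Affymetrix operating software, per the submitters' processing notes. Neither its version nor its summary algorithm is stated there. With 2% of probe sets trimmed at each end, every array averages 2501 units, so each difference is relative to the array's other genes. Detection calls were not used, and the 3 arrays per tissue limit the precision.

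Intensities were put on a log2 scale after adding 46, their 10th percentile. Control probe sets were left out, and a probe set entered the tests if 3 of 9 arrays exceeded their own 40th percentile, which left 20330. limma 3.58.1 in R 4.3.3 fitted tissue alone to all 9 arrays (6 residual and 6.08 prior degrees of freedom, mean-variance trend), with Benjamini-Hochberg adjustment per comparison. Differences are the first-named tissue minus the second, with standard errors.

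The members, gene lists, tests and most alternatives were chosen with earlier results of these data known, and fits within the 2 ranges of control ratio were added after the data were seen. Values on every array are given for the 4 replication and 4 mitosis genes of smallest p in a comparison, and for Rfc3, Birc5 and Mki67, which like the WD arrays of Ccna2 were chosen after their values were seen. From other lists up to 4 genes of smallest p, and called genes where they numbered 5 or fewer, are named. The alternatives were other scalings, pseudocounts, filters, variance models and probe-set summaries, a control-ratio term, a beta-actin covariate, a replicate block and leaving out each array. The procedure was tested on simulated data.

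Promoters come from RefSeq's GRCr8 table, with 1 start site per gene. All 37 measured genes matched its gene table.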

Additional observations from a re-analysis of the deposited data

How the results depend on the processing

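No call of a replication or mitosis member changed sign under any alternative. Of the 28 calls in UB against WD, 20 held in every alternative except the control-ratio term and 23 held without each array in turn. Of the 8 calls in WD with mesoderm against WD, 0 held in all alternatives, and of the 15 in UB against WD with mesoderm 1, Mcm6, did. Leaving out 1 array at a time gave 10 to 14 replication and 13 to 16 mitosis calls in UB against WD (medians 0.53 to 0.60 and 0.64 to 0.78), 1 to 3 and 2 to 5 in WD with mesoderm against WD (0.11 to 0.17 and 0.32 to 0.40), and 4 to 9 and 4 to 11 in UB against WD with mesoderm (0.35 to 0.44 and 0.39 to 0.47).

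With arrays centred on their medians, the medians of replication and mitosis members were 1.01 and 1.19 in UB against WD, 0.22 and 0.48 in WD with mesoderm against WD, and 0.77 and 0.76 in UB against WD with mesoderm. The median of all probe sets was then 0.34, 0.06 and 0.32, and the members' medians relative to it were 0.67 and 0.85, 0.16 and 0.42, and 0.45 and 0.44. The calls were 2 mitosis members in WD with mesoderm against WD, and 14 replication and 19 mitosis members in UB against WD with mesoderm. Quantile normalization gave a mitosis median of 0.59 in UB against WD, and medians of 0.35 and 0.31 with 5 mitosis calls in UB against WD with mesoderm.

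The control-ratio term left 0 replication and 1 mitosis call in UB against WD (medians 0.44 and 0.67), 1 and 2 in WD with mesoderm against WD (mitosis median 0.32), and 1 and 0 in UB against WD with mesoderm (replication median 0.33). The beta-actin covariate gave a replication median of 0.62 in UB against WD, and 0 and 1 calls with medians of 0.25 and 0.27 in WD with mesoderm against WD. With it, 5.73% and 1.88% of all probe sets were called higher in these 2 comparisons. The 5 arrays of low control ratio gave 0 and 3 calls in WD with mesoderm against WD (mitosis median 0.32), and the 4 of high ratio gave 4 and 0 calls in UB against WD with mesoderm (replication median 0.33). No fit within either range exists for UB against WD. In WD with mesoderm against WD the mitosis calls were 3 without a filter, 2 without the mean-variance trend and 2 with only those groups fitted. In UB against WD with mesoderm they were 5 without the trend, and array weights gave 11 replication calls and a mitosis median of 0.44. The mean of all probe sets gave a mitosis median of 0.81 in UB against WD. Outside the members, Orc4 in UB against WD was 0.01 with median centring, and the mean of all probe sets gave 0.01 for Tfdp2 in UB against WD and -0.12 for Dut in WD with mesoderm against WD. The causes were not tested.

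No pairing by replicate number was seen. Same-numbered arrays of different tissues correlated at -0.348 to 0.277 in their deviations from the tissue means, and differently numbered ones at -0.262 to 0.3. With 3 arrays per tissue this check could not exclude a pairing. With the replicate number as a block, the replication and mitosis calls were 13 and 14 in UB against WD, 3 and 5 in WD with mesoderm against WD, and 6 and 9 in UB against WD with mesoderm. Signal over background could not be judged for single probe sets, but no member's representative lay below the 55.7th percentile of any array (Tyms).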
